A study of Mus musculus with 10 samples.

Results

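The genes described here are the 31 of 230 genes in the deposited table whose mean CPM (the read count scaled to a common library total) over 5 IL-22 libraries was below the mean over 5 PBS libraries. The rule left out Slc2a2 and Iapp, which also met it, so that 33 listed genes were lower and 197 higher. The study asked which pathways act downstream of the IL-22 receptor in pancreatic beta-cells. It used MIN6N8, a mouse insulinoma line that secretes insulin, as 5 samples given PBS, the vehicle, and 5 given 100 ng/mL IL-22 for 4 h, both in medium with 5.5 mM glucose. No allele or other agent is named for either group. The dose and the number of samples differ between the sample labels, followed here, and the study's text, which calls the samples independent. A line of this kind is a transformed model of 1 cell type, and the labels do not say whether the samples of a group came from separate cultures, so that the spread between them may be technical.

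Beta-cells make, store and secrete insulin, a load that draws on translation, protein quality control in the endoplasmic reticulum, vesicle traffic and lysosomal turnover. IL-22 is a cytokine of the IL-10 family that signals through a receptor on epithelial and secretory cells to JAK kinases and the transcription factor STAT3. By their known functions, the lower genes included 8 of membrane traffic, the lysosome and secretion, 7 of metabolism and mitochondria, 5 of ubiquitin and protein degradation, 3 of transcription and chromatin, 2 of signaling, 2 of the cytoskeleton and 1 of the ribosome. A further 3 (Chic1, Fam199x and Tmem263) were given no role. No single role held most of the members, and each was lower by at most 14.9% of its PBS mean.

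The membership was decided by the IL-22 minus PBS difference itself. Fold changes are therefore given as a description, with no test, and the direction they share is the rule's. The table was also selected beforehand by the authors' own comparison, and other genes were not analysed here. Ids, the member with the smallest relative difference, had a mean of 456 CPM with PBS and 427 CPM with IL-22 (6.29% lower), and Actb, the listed gene least above its PBS mean, had 1186 and 1273 CPM (7.38% higher). Between them lay only Iapp, which the rule left out.

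Libraries held 23685889 to 35785878 counted reads with PBS and 26759226 to 30568904 with IL-22. The lowest count of a member in any library was 538 reads, for Hmgb3, and all 31 passed the minimum of 1 CPM in 5 libraries, as did all 230 listed genes. Of the beta-cell markers checked, 7 were in the table. Slc2a2 and Iapp were lower with IL-22, and Mafa, Nkx2-2, Nkx6-1, Pcsk1n and Pdx1 were higher. None of the markers of other cells (0 listed) was in the table, so their levels were not analysed here.

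Promoters of 25 members were found in RefSeq (GRCm38.p6), each a window of 300 bases that spans a start of transcription, the first listed where there were several. The 3 with the largest relative difference and the 3 that hold the letters bound by STAT factors (TTCNNNGAA) are shown 5′ to 3′. Capitals mark matches, on either strand, to TTCNNNGAA, to TGANTCA, known from binding by AP-1, to TGACGTCA, known from binding by CREB, to CCAAT of the CCAAT box, to TATAAA of the TATA box and to GGGCGG of the GC box. Overlapping matches run together. The Akr1c19 window lies inside the gene by the annotation used for the other properties, in which the gene starts at 4228700.
Hmgb3 promoter, chrX:71555667-71555966, plus strand: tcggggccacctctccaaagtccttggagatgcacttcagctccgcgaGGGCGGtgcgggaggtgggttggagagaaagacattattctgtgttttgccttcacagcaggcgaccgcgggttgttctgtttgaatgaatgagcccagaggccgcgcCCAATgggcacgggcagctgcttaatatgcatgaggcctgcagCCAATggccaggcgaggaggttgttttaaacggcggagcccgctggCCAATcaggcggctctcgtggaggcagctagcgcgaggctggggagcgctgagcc
Zxdb promoter, chrX:94724319-94724618, plus strand: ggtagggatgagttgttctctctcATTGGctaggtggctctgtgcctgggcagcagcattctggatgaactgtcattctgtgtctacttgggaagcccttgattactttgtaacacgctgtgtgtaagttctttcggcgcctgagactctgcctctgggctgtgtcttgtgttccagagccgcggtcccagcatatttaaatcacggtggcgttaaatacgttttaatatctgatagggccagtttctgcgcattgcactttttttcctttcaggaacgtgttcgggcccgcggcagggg
Fam199x promoter, chrX:137049344-137049643, plus strand: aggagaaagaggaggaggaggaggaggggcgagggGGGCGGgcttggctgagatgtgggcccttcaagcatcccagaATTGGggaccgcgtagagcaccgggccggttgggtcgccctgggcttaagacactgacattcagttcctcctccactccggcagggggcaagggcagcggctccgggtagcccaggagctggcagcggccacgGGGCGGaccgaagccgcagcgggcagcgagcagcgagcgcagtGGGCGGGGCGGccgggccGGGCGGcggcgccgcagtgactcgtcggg
Lamtor4 promoter, chr5:138255232-138255531, plus strand: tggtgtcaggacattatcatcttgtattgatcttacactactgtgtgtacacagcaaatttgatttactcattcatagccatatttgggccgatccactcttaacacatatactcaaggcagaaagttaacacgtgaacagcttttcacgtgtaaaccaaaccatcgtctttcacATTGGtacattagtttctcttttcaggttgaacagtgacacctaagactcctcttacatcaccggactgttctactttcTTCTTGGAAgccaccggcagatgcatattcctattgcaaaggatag
Akr1c19 promoter, chr13:4233490-4233789, plus strand: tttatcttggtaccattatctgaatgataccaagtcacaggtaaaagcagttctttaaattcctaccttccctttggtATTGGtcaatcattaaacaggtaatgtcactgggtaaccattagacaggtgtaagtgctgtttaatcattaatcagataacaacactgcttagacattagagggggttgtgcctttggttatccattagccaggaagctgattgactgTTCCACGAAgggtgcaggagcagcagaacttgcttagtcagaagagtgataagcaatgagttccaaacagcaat
Sytl4 promoter, chrX:133981763-133982062, minus strand: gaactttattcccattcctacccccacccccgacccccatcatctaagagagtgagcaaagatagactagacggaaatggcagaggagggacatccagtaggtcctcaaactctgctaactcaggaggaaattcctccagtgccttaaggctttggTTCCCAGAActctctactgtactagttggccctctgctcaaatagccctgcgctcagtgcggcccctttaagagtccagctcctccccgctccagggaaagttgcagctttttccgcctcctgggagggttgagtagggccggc
The STAT letters were found in 3 of 25 member promoters (12%), those of Lamtor4, Akr1c19 and Sytl4, in 8.47% of 27025 promoters of the same length and in 8.65% of the 185 listed genes matched. GGGCGG was in 15 (60.0%) against 35.9% of all promoters and 61.1% of listed genes. CCAAT was in 13 (52.0%), 37.9% of all and 33.5% of listed genes. TATAAA was in 2 (8.0%), 14.2% of all and 9.19% of listed genes. TGANTCA was in 1 (4.0%), 7.93% of all and 3.78% of listed genes, and TGACGTCA in 0 of 25, 1.88% of all and 4.32% of listed genes. A match is a run of letters and not a bound site, and factor binding was not measured in this study.

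Among genes of transcription and chromatin, Hmgb3, a high-mobility-group protein that bends DNA, showed the largest relative difference of the members. It lies on chromosome X from 71555918 to 71560676 (mm10, as for all coordinates here). Hmgb3 was at 23.7, 25.8, 23.4, 26.3 and 22.6 CPM in PBS libraries 1 to 5 and at 18.8, 21.0, 20.1, 19.6 and 24.1 CPM in IL-22 libraries 1 to 5. IL-22 library 5 lay within the PBS range and the other 4 below it. The means were 24.4 ± 1.62 and 20.7 ± 2.03 CPM (SD, n = 5), and the log2 fold change was -0.23 (SE 0.074), which went to -0.29 without IL-22 library 5. Its transcript shares 603 nt with the pseudogene Gm6104, and reads of the pair may not be told apart.

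Zxdb encodes a zinc finger protein of the C2H2 class and lies on chromosome X from 94724569 to 94730187. It was at 38.2, 38.5, 36.9, 36.3 and 36.3 CPM in the PBS libraries and at 35.3, 32.6, 33.4, 29.9 and 28.3 CPM in the IL-22 libraries. Every IL-22 library lay below every PBS library, though IL-22 library 1 was only 0.979 CPM below the lowest PBS value. The means were 37.2 ± 1.05 and 31.9 ± 2.79 CPM, and the log2 fold change was -0.22 (SE 0.060). Zxdb shares 2622 nt with its X-linked copy Zxda at 97% identity or more, so how reads were split between the copies is uncertain. Anp32e, a chaperone that removes the histone variant H2A.Z from chromatin, went from 290 ± 5.79 to 268 ± 8.50 CPM (SD, n = 5), and IL-22 library 1 reached the PBS range. A list of C2H2 zinc finger genes, picked by symbol and not complete, had 8 genes in the table, of which Zxdb was lower and 7 were higher.

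Rpl39 encodes a small protein of the large ribosomal subunit that lines the exit tunnel of the nascent chain, and lies on chromosome X from 37082520 to 37085402. Rpl39 was at 108, 107, 102, 102 and 99.2 CPM with PBS and at 95.8, 91.1, 93.5, 79.7 and 92.7 CPM with IL-22. The groups did not overlap, and IL-22 library 4 stood below the other 4. The means were 104 ± 3.68 and 90.6 ± 6.29 CPM (SD, n = 5). The log2 fold change was -0.19 (SE 0.047), and -0.15 without IL-22 library 4. It was the 1 gene in the table with an Rpl or Rps symbol. Its transcript shares up to 156 nt with 4 other annotated genes and overlaps the snoRNA Snora69 on the same strand, so its count is uncertain to that extent.

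In the ubiquitin group, Fbxo3 is the substrate-binding F-box subunit of an SCF ubiquitin ligase and lies on chromosome 2 from 104027721 to 104063240. It was at 117, 122, 117, 115 and 115 CPM with PBS and at 107, 104, 106, 97.8 and 107 CPM with IL-22. The lowest PBS value was 8.04 CPM above the highest IL-22 value, with PBS library 2 apart on the high side and IL-22 library 4 on the low side. The means were 117 ± 2.66 and 104 ± 3.83 CPM (SD, n = 5), and the log2 fold change was -0.16 (SE 0.035). Fbxo3 overlaps 4931422A03Rik, a protein-coding gene of the opposite strand, and a small RNA gene, Gm24644, of its own strand. The kit marks strand, but whether counting used it is not given in the sources used here.

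Svip encodes a small protein that binds the ATPase VCP and inhibits degradation of proteins from the endoplasmic reticulum. Svip was at 49.1, 42.9, 48.1, 48.3 and 45.3 CPM with PBS and at 43.3, 40.9, 41.1, 40.1 and 40.2 CPM with IL-22. Only PBS library 2 fell below an IL-22 library, and by 0.450 CPM. The log2 fold change was -0.19 (SE 0.049).

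Znrf2 is a membrane-associated RING-type ubiquitin ligase. It was at 56.3, 57.3, 56.6, 56.7 and 52.1 CPM with PBS and at 49.9, 51.7, 53.8, 44.2 and 47.4 CPM with IL-22. PBS library 5 stood apart on the low side and was passed by IL-22 library 3. The log2 fold change was -0.17 (SE 0.053).

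Dcun1d1 promotes the attachment of NEDD8 to cullins, the scaffolds of SCF ligases. It was at 41.9, 42.9, 39.6, 41.4 and 39.3 CPM with PBS and at 37.3, 35.8, 34.2, 36.1 and 39.0 CPM with IL-22. The groups met to within 0.373 CPM and did not overlap. The log2 fold change was -0.17 (SE 0.049). Dcun1d1 shares up to 2793 nt with 2 other annotated genes, among them the antisense gene Gm15952 and the pseudogene Tes3-ps.

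Ndfip1, an adaptor that recruits ligases of the Nedd4 family, was at 148 ± 6.51 CPM with PBS and 134 ± 4.41 CPM with IL-22 (SD, n = 5). Over these 5 genes log2 fold changes ran from -0.19 to -0.13. A list of ubiquitin ligases and F-box proteins, picked by symbol, had 6 genes in the table, of which Fbxo3 was lower, and Asb4, Fbxl15, Fbxl16, Rnf126 and Ube2c were higher. That list is not complete, as it leaves out ligases on both sides, such as Znrf2, which was lower, and Mib2, which was higher.

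Lamtor4 is a subunit of the Ragulator complex, which anchors the growth kinase mTORC1 to the lysosome, and lies on chromosome 5 from 138255482 to 138259398. Lamtor4 was at 33.0, 31.5, 30.7, 31.4 and 29.7 CPM with PBS and at 28.2, 27.4, 26.1, 28.8 and 25.9 CPM with IL-22. The groups did not overlap, with a gap of 0.912 CPM. The means were 31.3 ± 1.23 and 27.3 ± 1.27 CPM (SD, n = 5), and the log2 fold change was -0.20 (SE 0.053). B630005N14Rik (Bmt2), a sensor of S-adenosylmethionine that restrains mTORC1, was at 55.0 ± 2.60 and 49.0 ± 3.0 CPM. Akt1s1, an mTORC1 subunit, was the other listed gene of the Ragulator and mTORC1 list and was higher with IL-22. The 2 genes of that list thus lay on opposite sides.

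Sytl4 (granuphilin) docks insulin granules at the plasma membrane and was at 279 ± 9.49 CPM with PBS and 257 ± 5.62 CPM with IL-22 (SD, n = 5). Its PBS values began 8.35 CPM above the highest IL-22 value, and its log2 fold change was -0.12 (SE 0.031). Stx12, an endosomal SNARE protein, had means of 124 ± 4.24 and 114 ± 2.11 CPM, with no overlap and a gap of 1.11 CPM. Stx12 was the 1 listed gene of the membrane traffic list, which was picked by symbol and is not complete. It leaves out traffic genes on both sides, such as the members Sytl4 and Tvp23b, and Clta and Mvb12a, which were higher. Tvp23b, a Golgi membrane protein, went from 68.3 ± 3.24 to 61.6 ± 3.72 CPM. It had the most overlap of the members, as in 4 of the 25 pairs of an IL-22 with a PBS library the IL-22 value was the higher.

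Tmem27 (now Cltrn, collectrin) is a membrane protein shed by beta-cells. It was at 475, 451, 469, 445 and 459 CPM with PBS and at 443, 407, 439, 401 and 448 CPM with IL-22. IL-22 library 5 passed PBS library 4, and all other pairs were in order. The means were 460 ± 12.1 and 428 ± 22.1 CPM (SD, n = 5), and the log2 fold change was -0.10 (SE 0.035).

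Ids, a lysosomal enzyme that removes sulfate from heparan and dermatan sulfate, was at 450, 468, 454, 452 and 456 CPM with PBS and at 433, 422, 439, 420 and 422 CPM with IL-22. The groups did not overlap, with a gap of 11 CPM, and Ids combined the smallest fold change of the members (-0.09) with the smallest SE (0.026). Atp6ap2, an accessory subunit of the proton pump that acidifies vesicles, went from 427 ± 22.7 to 394 ± 17.3 CPM (SD, n = 5), and 1 of the IL-22 libraries lay within the PBS range. Ctso, the lysosomal protease cathepsin O, went from 71.8 ± 2.08 to 65.3 ± 2.32 CPM without overlap. Over the 8 genes of this group log2 fold changes ran from -0.20 to -0.09 (median -0.12).

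In the metabolic group, Ddc, the aromatic amino acid decarboxylase that makes dopamine and serotonin, had the highest CPM of the members. Ddc was at 618, 595, 616, 562 and 588 CPM with PBS and at 569, 542, 560, 534 and 543 CPM with IL-22. Of these, PBS library 4 fell below IL-22 library 1 and the rest were in order. The means were 596 ± 22.9 and 550 ± 14.4 CPM (SD, n = 5), and the log2 fold change was -0.12 (SE 0.031).

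Slc16a12, a transporter of creatine, was at 167 ± 1.31 CPM with PBS and 154 ± 3.13 CPM with IL-22, with a gap of 7.28 CPM between the groups. Impa1, inositol monophosphatase, was at 104 ± 1.98 and 95.1 ± 3.49 CPM without overlap. Nudt11, which hydrolyses inositol pyrophosphates, was at 130 ± 3.45 and 119 ± 4.55 CPM without overlap.

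Akr1c19, an aldo-keto reductase, was at 62.7 ± 3.18 and 56.3 ± 3.42 CPM, and Tmem65, a protein of the mitochondrial inner membrane, at 244 ± 9.63 and 226 ± 8.0 CPM. Both overlapped between groups. Log2 fold changes in the metabolic group lay between -0.16 and -0.11. The 4 genes of the respiratory chain list, picked by symbol, that were in the table (Cox5b, Cox6a1, Cox8a and Uqcrq) were higher. Nudt11 shares 685 nt with Nudt10, and Impa1 overlaps the protein-coding gene model Gm38303 on its own strand, so that their counts are uncertain.

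Of the cytoskeletal genes, Tmsb4x (thymosin beta 4) binds actin monomers. Tmsb4x was at 291, 284, 310, 278 and 272 CPM with PBS and at 279, 246, 258, 232 and 257 CPM with IL-22. IL-22 library 1 passed PBS libraries 4 and 5, while the other 4 IL-22 libraries lay below the PBS range. The means were 287 ± 14.7 and 255 ± 17.2 CPM (SD, n = 5), and the log2 fold change was -0.17 (SE 0.046). Cetn2, a centriole protein, went from 66.2 ± 3.08 to 59.9 ± 1.66 CPM. In signaling, Prkar2b, a regulatory subunit of protein kinase A, went from 82.7 ± 3.02 to 75.1 ± 2.91 CPM, and each of these 2 genes had 1 overlapping pair of libraries.

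Of the genes given no role, Chic1 encodes a cysteine-rich protein with a hydrophobic stretch and lies on chromosome X from 103356476 to 103396092. Chic1 was at 258, 254, 250, 261 and 254 CPM with PBS and at 239, 225, 238, 212 and 220 CPM with IL-22. The groups were 11.6 CPM apart, the widest gap in CPM of any member. The means were 255 ± 4.29 and 227 ± 11.6 CPM (SD, n = 5), and the log2 fold change was -0.17 (SE 0.035).

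Fam199x lies on chromosome X from 137049594 to 137082503. It was at 23.1, 26.8, 23.9, 25.6 and 23.8 CPM with PBS and at 22.2, 21.2, 21.3, 19.8 and 21.2 CPM with IL-22. The groups did not overlap, with a gap of 0.931 CPM. The means were 24.7 ± 1.51 and 21.1 ± 0.848 CPM (SD, n = 5), and the log2 fold change was -0.22 (SE 0.061). Tmem263, a small membrane protein, went from 91.2 ± 2.66 to 82.1 ± 6.51 CPM, and IL-22 library 1 lay within the PBS range.

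**Figure D1:**
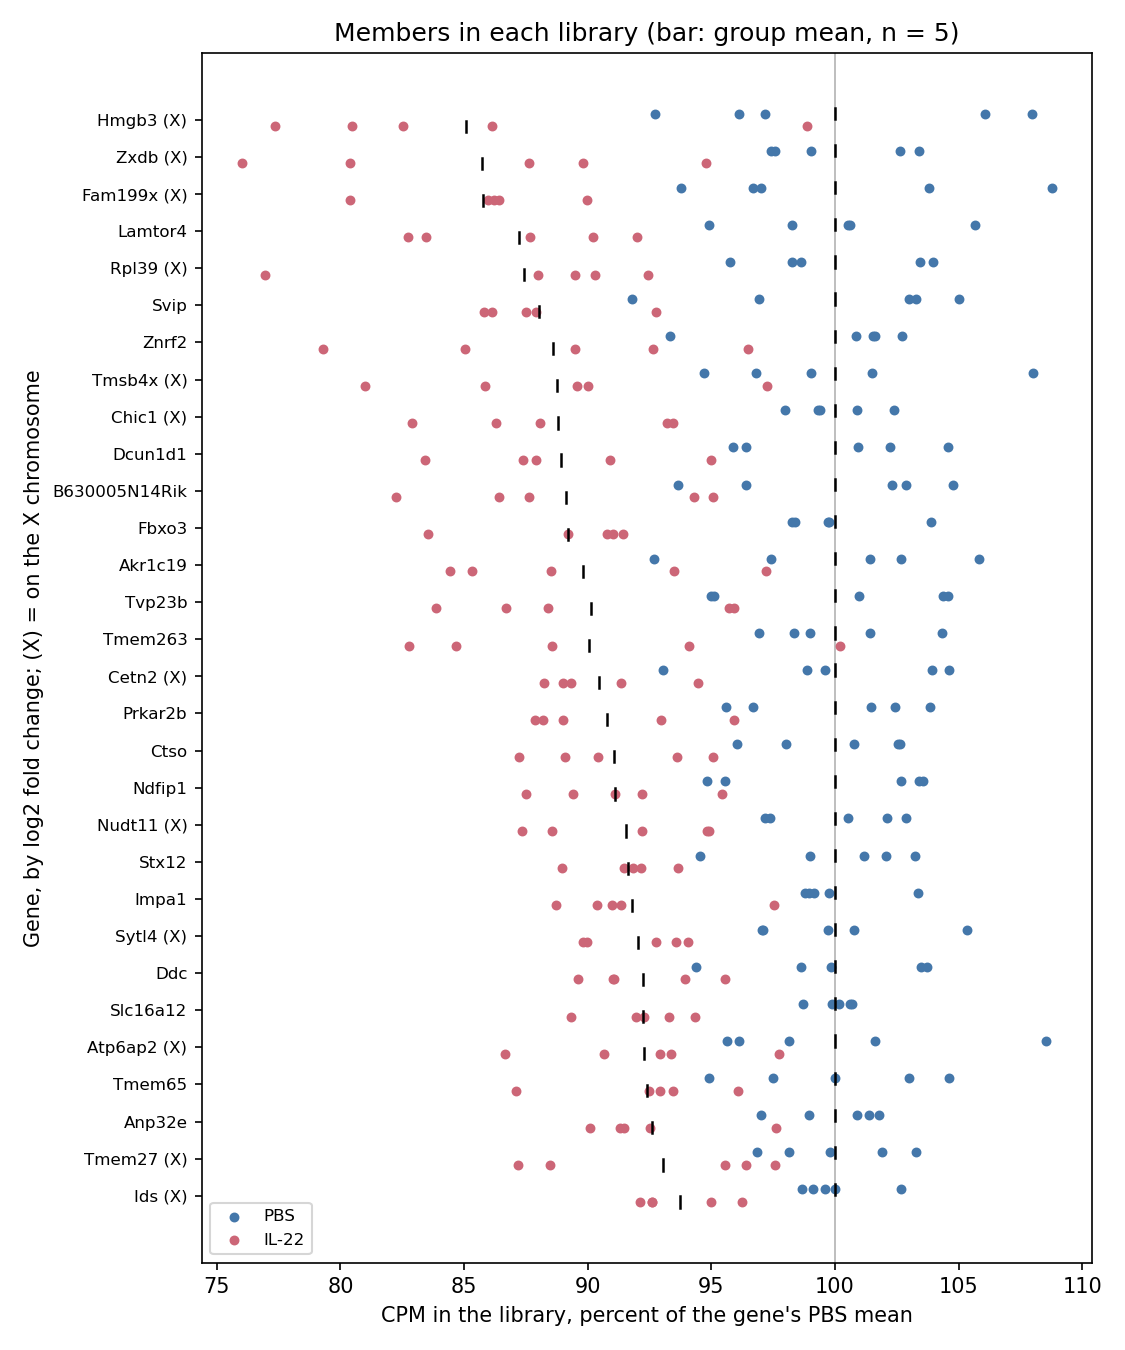
Each row is 1 of 30 members and each point a library, with CPM as percent of that gene's PBS mean on the x axis (blue PBS, red IL-22, black bars group means, n = 5 per group). IL-22 means lay 6.29% to 14.9% below the PBS means, and in 14 of 30 rows no red point reached a blue one.

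Over the 31 members the relative difference between group means ran from 6.29% to 14.9% lower (median 9.83%). The median log2 fold change was -0.15 (range -0.23 to -0.09), against 0.21 over all 230 listed genes. The median size regardless of sign was 0.15 in the members and 0.22 in the 197 higher genes, whose largest value was 1.92. The median spread within a group was 0.060 log2 units (SD of log2(CPM + 0.1)) for members and 0.093 for the higher genes. The members' differences were thus small, as was their spread between libraries. As the table was selected by the authors' comparison, small differences may be listed only where the spread is small. A small spread is not particular to the members, as Actb, the higher gene of smallest difference, had 0.041. All 5 IL-22 libraries lay below all 5 PBS libraries in 14 members, which are 6.09% of the 230 listed genes and all of those that separated in this direction. In either direction 52.6% of listed genes separated. As the rule and the table's own selection used this contrast, nothing is read from these shares. A further 9 members had a single overlapping pair of libraries of 25, and in 29 of 31 every IL-22 library lay below the PBS median.

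The sizes depend on the scale to which libraries are set. The values above use the library totals, so that a CPM is a share of all counted reads. With factors made by TMM from just the listed genes, the median log2 fold change of all listed genes moved by -0.20 to 0.003, 113 genes were lower and 117 higher in place of 33 and 197, and the members' median was -0.36 (range -0.44 to -0.30). As TMM moved all genes alike and the members were chosen for values below 0, their sign could not turn under it. With every library moved to a common median of the listed genes, 27 of 31 members did not overlap between groups, as did 12.6% of all listed genes in this direction.

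Summed over the members, expression was 5103, 5141, 5099, 4976 and 4937 CPM in PBS libraries 1 to 5 and 4752, 4597, 4710, 4447 and 4567 CPM in IL-22 libraries 1 to 5. The means were 5051 ± 89.2 and 4614 ± 121 CPM (SD, n = 5), a difference of -8.64%. The members took 0.505% of the reads of a PBS library and 0.461% of those of an IL-22 library. Within the groups the libraries were not alike. IL-22 library 4 had the lowest value of all 10 libraries in 16 of 31 members, PBS library 2 was the highest of the PBS libraries in 14, and IL-22 library 1 the highest of the IL-22 libraries in 14. With group means removed, the median correlation between 2 members over the 10 libraries was 0.30, against 0.30 between 2 higher genes and -0.18 between a member and a higher gene. These are descriptions over libraries that differed in depth and base composition.

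Per kb of transcript, which lets levels of genes be compared, the members spanned 2.76 CPM per kb for Fam199x to 319 for Tmem27. Their median level was 33.4 CPM per kb, against 20.1 over all listed genes. The most abundant on this scale were Tmem27 (319), Tmsb4x (313), Ddc (284), Atp6ap2 (177) and Rpl39 (159), and the least abundant were Fam199x (2.76), Zxdb (6.16) and Dcun1d1 (7.78). Tmem27 and Tmsb4x did not differ beyond the spread of their libraries. Members thus included genes close to the top of the table and genes of low level. Of the least abundant, Fam199x was 14.2% lower, Zxdb 14.3% and Dcun1d1 11.1%. Of the most abundant, Rpl39 was 12.6% lower, Tmsb4x 11.3%, Ddc 7.77%, Atp6ap2 7.74% and Tmem27 6.97%. The SE was largest for Hmgb3 (0.074), at 12.9 CPM per kb, and was 0.061 for Fam199x and 0.049 for Dcun1d1 at lower levels.

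**Figure D2:**
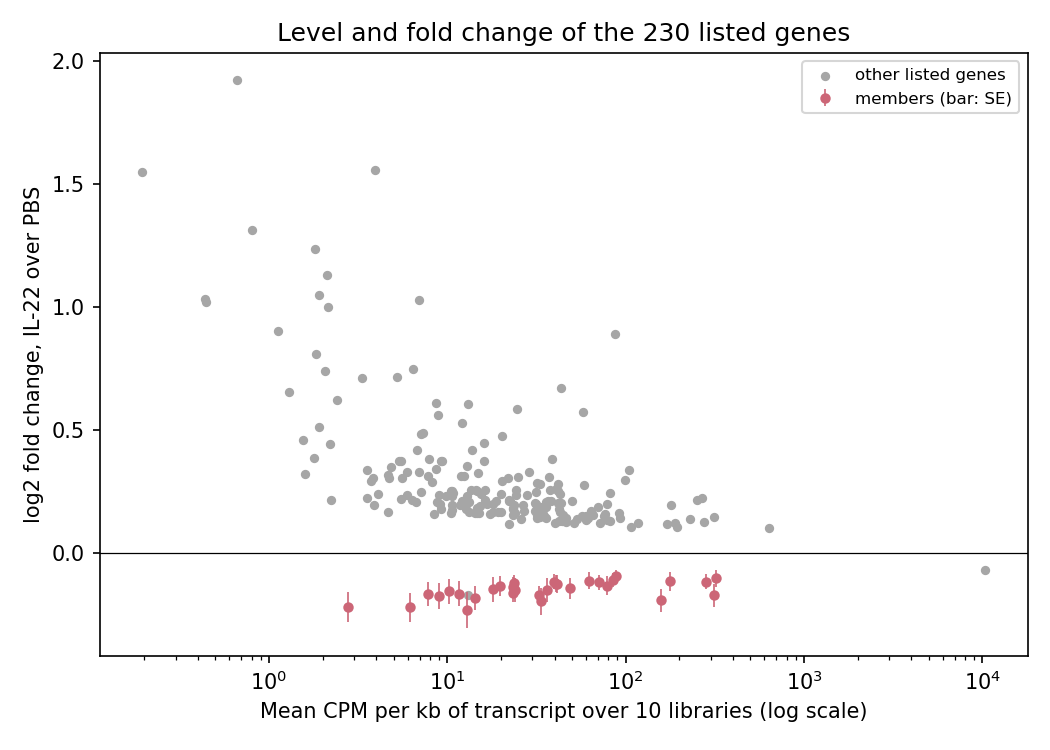
The x axis is the mean level in CPM per kb of transcript over 10 libraries (log scale) and the y axis the fitted fold change between IL-22 and PBS (log2); red points are members with their SE, grey points the other listed genes. Members lie between -0.23 and -0.09 over levels of 2.76 to 319 CPM per kb, while grey points reach 1.92 at low levels; with TMM over the listed genes the members' range was -0.44 to -0.30.

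The members also shared features that the rule did not use. Of the 31 members 12 lie on chromosome X (38.7%): Hmgb3, Zxdb, Fam199x, Rpl39, Tmsb4x, Chic1, Cetn2, Nudt11, Sytl4, Atp6ap2, Tmem27 and Ids. Of the 197 higher genes 5 do (2.54%), and of 21951 annotated protein-coding genes 948 (4.32%). The members thus held 12 of the 17 X-linked genes in the table, and 19 of 213 autosomal ones. The 5 X-linked genes on the other side were Pcsk1n, Reps2, Cxx1a, Syn1 and Pim2, with log2 fold changes of 0.13 to 0.89. X-linked and autosomal members had like differences. The median log2 fold change was -0.16 for the 12 and -0.15 for the 19, and the summed CPM was lower by 8.61% and 8.68%. The other members were spread over 14 autosomes, with 4 on chromosome 3 (Dcun1d1, Ctso, Impa1 and Anp32e) and at most 2 on any other.

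Members also had transcripts of low GC content (the share of G and C in the longest protein-coding transcript). Their median was 44.1% (range 37.8% to 56.3%), against 58.5% in the higher genes and 57.4% in all listed genes. Under 45% GC lay 23 of 31 members and 14 of 197 higher genes. Chic1 (37.8%), Bmt2 (38.3%) and Fam199x (38.4%) were among the lowest and Lamtor4 (56.3%) was highest. X-linked and autosomal members did not stand apart in this, with medians of 44.0% and 44.1%. Median transcript length was 3468 nt for members and 2751 nt for all listed genes, and median coding length was 777 and 1110 nt, so that members had shorter coding parts in longer transcripts. The median number of exons was 7 and 6.

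**Figure D3:**
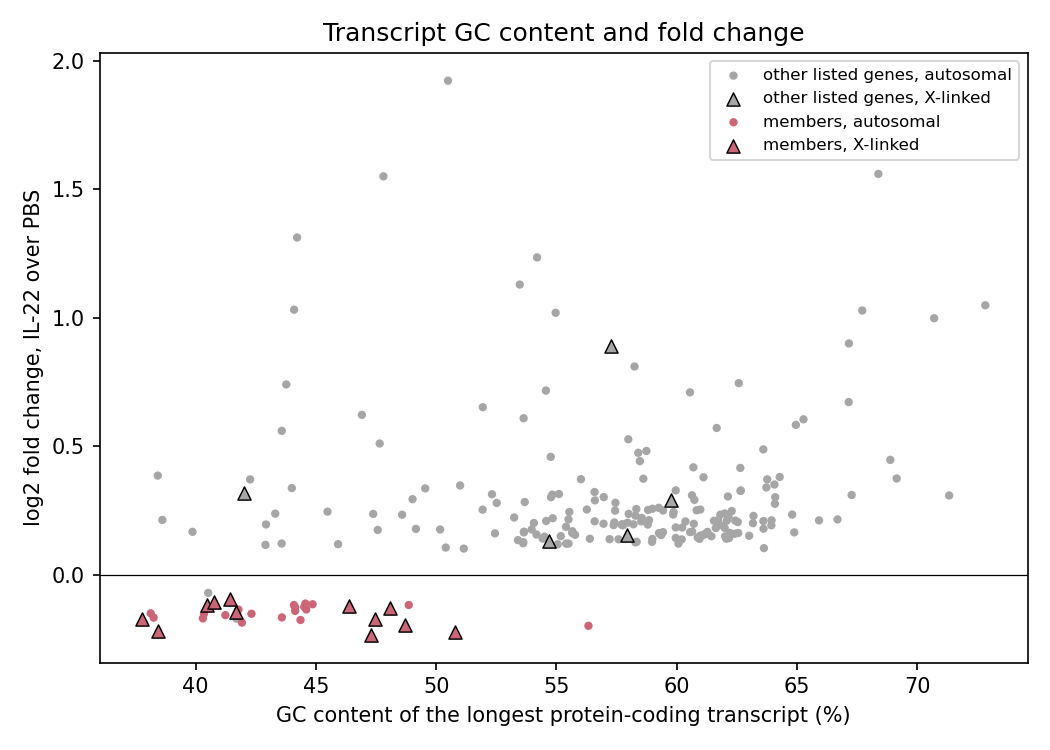
The x axis is the GC content of the longest protein-coding transcript in percent and the y axis the fitted fold change between IL-22 and PBS (log2), with members in red, other listed genes in grey and X-linked genes as outlined triangles. Of the members 23 of 31 lie under 45% GC, and 12 of the 17 triangles lie below 0; by the rule all members lie below 0.

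Base composition moved with the libraries as well. A GC index was computed for each library as the slope, across genes, of its log2 CPM (as deviation from the gene's mean) on GC content, per 10 percentage points. Over the 199 listed genes that are no members it was -0.11, -0.10, 0.029, -0.014 and 0.16 in PBS libraries 1 to 5, and lay between -0.011 and 0.022 in the IL-22 libraries. PBS libraries 1 and 2 were low and library 5 was high, and the IL-22 libraries lay within the PBS range. Among the PBS libraries, number 5 had the highest index and the lowest summed expression of the members. Over all 230 listed genes, members included, the index was -0.15, -0.14, -0.032, -0.078 and 0.082 in PBS libraries and 0.043 to 0.089 in IL-22 libraries, so that 4 PBS libraries lay below all IL-22 ones. With the first index as a covariate the members' median log2 fold change was -0.15. With the second, which contains the members' own difference, it was -0.11 (range -0.17 to -0.05), and all 31 were still lower. Without PBS libraries 1 and 2 it was -0.14. Whether unequal recovery of GC-rich fragments has a part in the members' difference was not tested.

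**Figure D4:**
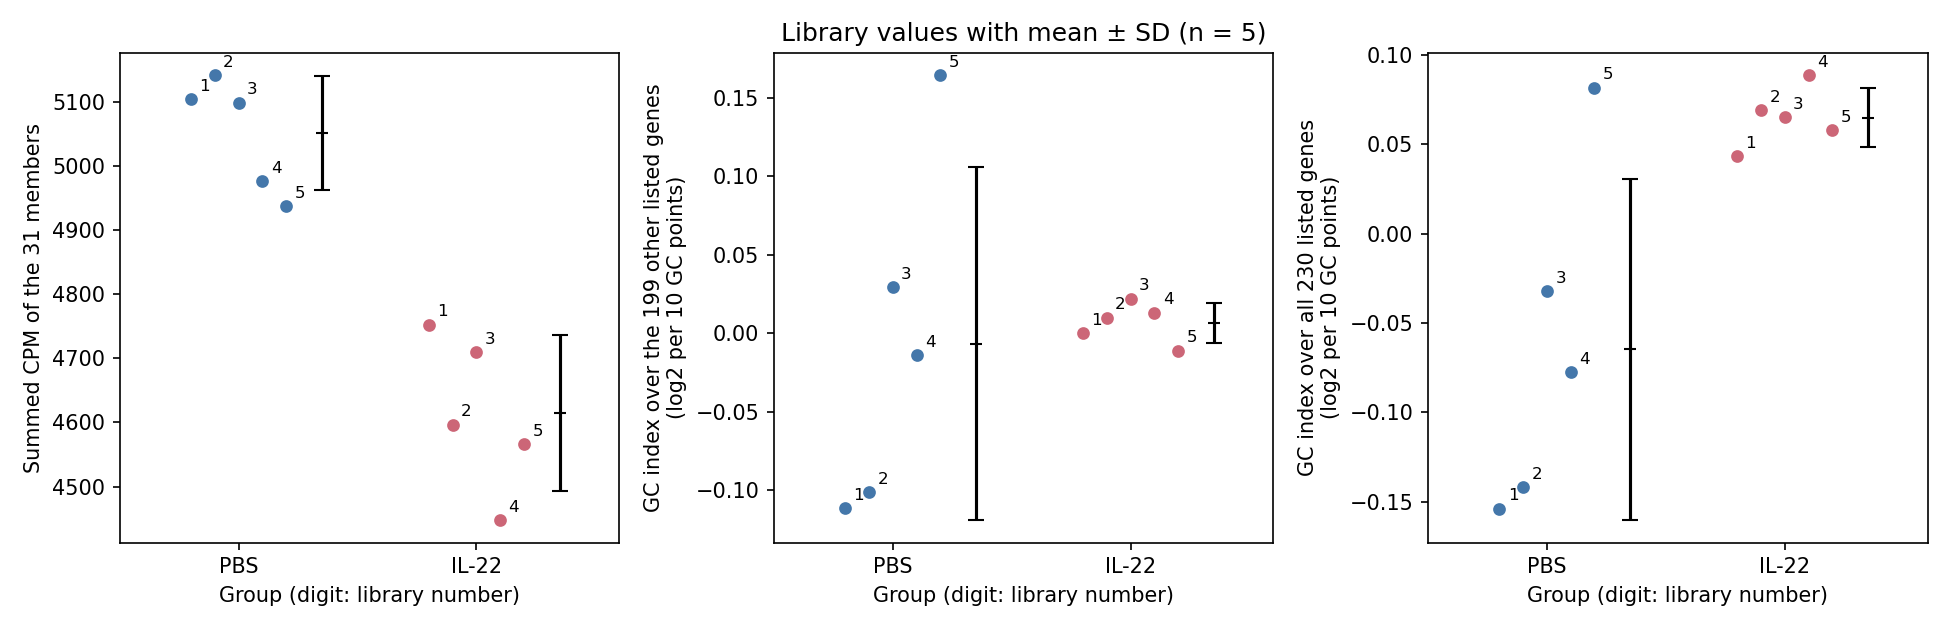
Points are the 10 libraries with their numbers, and black bars are the mean ± SD of each group (n = 5); the panels show the summed CPM of the 31 members, the GC index over the 199 other listed genes and the GC index over all 230 listed genes (log2 per 10 GC points). The summed CPM did not overlap between groups (4937 to 5141 with PBS, 4447 to 4752 with IL-22), the first index did, and in the second PBS library 5 (0.082) lay among the IL-22 libraries.

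Jak3, Socs3 and Stat3 were the listed genes of the JAK-STAT list, and all 3 were higher with IL-22 (median log2 fold change 0.38), so no member belonged to it. The list of splicing genes, also picked by symbol and not complete, had Sf3b5 and Snrpa in the table, and both were higher. Counts of 13 members may include reads of an overlapping annotated gene, and 10 share at least 100 nt at 97% identity or more with another gene.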

How the data were processed

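Stranded mRNA libraries (Illumina TruSeq) of MIN6N8 cells were grouped by the sample labels as 5 PBS and 5 IL-22 libraries. The authors deposited, for 230 genes, raw counts per library, without normalization, and CPM. In 98.9% of deposited values the CPM equalled the count over the library total within 0.0005. The deposited table also holds the authors' log2 fold change and mean log2 expression, p-value and FDR, which were not used. Per the labels the build is mm10. The aligner and counter are not given in the sources used here. The members and lists were chosen with earlier results of these data known.

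Counts of all 230 genes were fitted with edgeR 4.0.16 (quasi-likelihood, R 4.3.3), with library totals (count over CPM) and no further factors. The SE is the log2 fold change over the square root of F. No p-value is given, since the contrast chose the members. Dispersions rest on the listed genes only. Alternatives were limma 3.58.1, DESeq2 1.42.0, TMM, filters, a replicate block, GC indices and each library left out. The index over all listed genes, the joint removal of PBS libraries 1 and 2, and the split by chromosome X were added after the data were seen. Properties came from the GENCODE annotation of GRCm38, where all 31 members were found, 2 by a newer symbol. Shared sequence came from blastn 2.17.0. The fits were tested on simulated data.

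Values of every library are given for the 6 members the rule names, the 10 with the largest fold change, and the 3 most and 3 least abundant by CPM. The others are given as group means. The values of 1 member are not reported here singly, and it counts in the sums, counts and medians.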

Additional observations from a re-analysis of the deposited data

Results flagged for a closer look

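A library stood apart from the other 4 of its group (Dixon's test of the gap to its nearest neighbor) in 5 of the 68 groups examined, where chance gives about 1 in 20. IL-22 library 4 was at 79.7 CPM for Rpl39 (others 91.1 to 95.8) and at 97.8 CPM for Fbxo3 (others 104 to 107). For Fbxo3, PBS library 2 was also apart, at 122 CPM against 115 to 117. PBS library 5 was at 52.1 CPM for Znrf2 (others 56.3 to 57.3), and PBS library 3 was at 107 CPM for Impa1 (others 102 to 103).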

How the results depend on the processing

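All 31 members kept a fold change below 0 under each alternative run: limma with pseudocounts of 1, 0.1 and 5, TMM, DESeq2 with either scaling, the replicate block, the GC indices, each library left out in turn, and PBS libraries 1 and 2 left out together. The filters removed no member, and TMM and DESeq2's own size factors shift all genes alike and downward, so these could not turn a member. The values that moved most were those of scaling over the listed genes. The members' median log2 fold change, -0.15, became -0.36 with TMM and -0.35 with DESeq2's own size factors. The count of listed genes that were lower, 33, became 113 and 102. The count of members whose groups did not overlap, 14, became 27 once libraries were shifted to the same median. By construction these scalings take the centre of the listed genes as unchanged. The GC index over all listed genes as a covariate moved 6 of 31 members by more than their within-group SD, took the median to -0.11 and left 39 listed genes lower. Leaving out each library in turn gave a median of -0.16 to -0.14 and 14 to 20 members without overlap, with 20 when IL-22 library 1 was left out. Of 310 values of single members with a library left out, none moved by more than its within-group SD. With 5 libraries per group, the loss of 1 cannot move a group mean that far, so nothing is read from this count. Same-numbered libraries of the 2 groups correlated at 0.29, 0.30, 0.33, -0.12 and -0.29 in their deviations from the group means, so the numbers were not taken to pair them. With the replicate block the members' median was -0.15, and 33 listed genes were lower. Counts of members began at 538 reads, for Hmgb3, and counting error weighs most on members of low count. Dispersions rest on the listed genes only.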
